A study of Homo sapiens with 4 samples.

Results

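ARID3A, ARID3B and ARID3C are the 3 genes of the ARID3 family of DNA-binding proteins, and they were examined together with the more distant relative ARID5B. The 4 genes were taken by symbol from the 19826 gene rows of the expression table, and each had 1 row. ARID proteins share the AT-rich interaction domain, which contacts DNA, and the ARID3 proteins also carry the REKLES domain, through which they pair with one another. ARID3A, also called Bright, was described in B cells as an activator of the immunoglobulin heavy chain locus, and it also binds E2F1. ARID3B is known for supporting growth of neuroblastoma cells, and ARID5B acts with the histone demethylase PHF2. let-7 microRNAs pair through their seed with matches in 3' UTRs and lower the targeted mRNAs, and ARID3A and ARID3B are both known as let-7 targets.

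RNA was measured by sequencing of polyA RNA from BE(2)C:MYCN-ORF cells, a human neuroblastoma line, BE(2)C, that carries an introduced MYCN open reading frame in every group. The 4 groups were siMYCN plus the let-7a mimic, siCon plus let-7a, siMYCN plus the control mimic miRCon, and siCon plus miRCon, where siMYCN is an siRNA against MYCN and siCon its control. Cells were harvested 48 hours after transfection, and each group had 1 library, so no difference between a pair of libraries has a replicate check. The deposited natural logs were turned back into TPM-like values, a measure scaled to gene length and library, and these keep no read depth.

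The values summed to between 855611 and 861825 per library, and transcripts of the mitochondrial genome made up between 28.4% and 32.1% of them. MYCN, the target of the siRNA, was at 1197 (let-7a) and 1238 (miRCon) in siMYCN cells, against 1433 (let-7a) and 1449 (miRCon) in siCon cells. Its RNA was thus only slightly lower with siMYCN (limma adjusted p = 0.0584), and the value can mix the introduced and the cells' own transcripts. LIN28B, a let-7 target used here as a check of the mimic, was at 55.5 (siMYCN) and 96.5 (siCon) with let-7a, against 119 (siMYCN) and 157 (siCon) with miRCon. Its let-7a log2 fold change averaged over both siRNA states, -0.89, did not pass over all genes either (limma adjusted p = 0.663). All 8 markers of sympathetic neuroblasts were detected, and they summed to 2553 and 2490 with let-7a (siMYCN, siCon) and to 1844 and 2215 with miRCon. The summed levels of 4 epithelial and 5 blood markers were at most 1.96 and 0.745. The 6 fibroblast markers summed to 243 and 249 with let-7a (siMYCN, siCon) and to 293 and 271 with miRCon, with COL1A2 under 1 in every library. Both sums thus differed with the mimic, and their part in the results on let-7a was not tested.

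The let-7a sequence and its matches in the 3' UTRs are shown because ARID3A and ARID3B hold matches and the other members do not. The mature let-7a strand from RefSeq, with its seed (bases 2 to 8) in capitals, is
hsa-let-7a-5p: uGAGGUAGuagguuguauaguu
It is made from 3 genes, of which MIRLET7A1 holds it at chr9:94175962-94175983 on the plus strand of GRCh38.p14. The mRNA letters searched were CTACCTCA (8mer), CTACCTC without the final A (7mer-m8) and TACCTCA without the leading C (7mer-A1), on the mRNA strand only, in the longest 3' UTR that GENCODE 29 gives for each gene.

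ARID3A lies on chromosome 19 from 925781 to 975934 on the plus strand of GRCh38 and has a 3' UTR of 3869 bases. Its 3' UTR held 3 matches, 1 of each class. They follow as 30-base windows of the mRNA strand that end opposite the first base of let-7a, with the bases matched in capitals.
ARID3A site 1: cagcagtgtgggccgatcctgttTACCTCA
ARID3A site 2: agcgcctgctgcctatctctgtCTACCTCA
ARID3A site 3: ttaaaaaacataaaactactctCTACCTCt
These windows lie at chr19:972447-972476, chr19:974504-974533 and chr19:975621-975650, and their matches start 405, 2461 and 3578 bases into the 3' UTR. Site 2 is the 8mer. At least 1 8mer was found in 4.42% of the 8916 tested genes with a 3' UTR, and at least 3 matches of any class in 0.819%.

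ARID3B lies on chromosome 15 from 74541177 to 74598131, also on the plus strand, and its shorter 3' UTR of 2357 bases held more matches. There were 5, of which 4 were 7mer-A1 and 1 was 7mer-m8, and none was an 8mer.
ARID3B site 1: gaaggaagttgatgcacagaattTACCTCA
ARID3B site 2: tgccgatgtcaggttcattgaaaTACCTCA
ARID3B site 3: tcaaaagcttgagcacaaacagaTACCTCA
ARID3B site 4: gggtagcctaggcagtgagtaaaTACCTCA
ARID3B site 5: atgtttatatttcaataaacctCTACCTCt
They lie at chr15:74595819-74595848, chr15:74596684-74596713, chr15:74597405-74597434, chr15:74598003-74598032 and chr15:74598094-74598123. At least 5 matches were found in 7 of the 8916 genes (0.0785%). The matches are spread over the whole 3' UTR, from base 68 to base 2348, with 83 bases between the last 2 of them.

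ARID5B, on chromosome 10 from 61901300 to 62096944 (plus strand), has the longest 3' UTR of the 4 genes, 3914 bases, and held 0 matches of any class. ARID3C, on chromosome 9 from 34621379 to 34628107 (minus strand), has an annotated 3' UTR of 79 bases with 0 matches. No match says only that these letters are not in the annotated window.

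**Figure D1:**
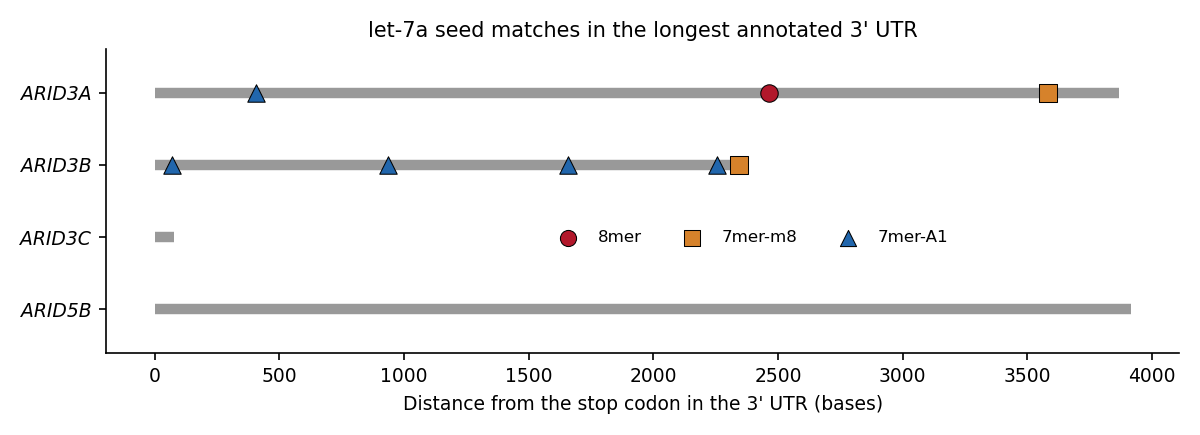
Longest annotated 3' UTR of each gene (grey bar, bases from the stop codon) with let-7a seed matches marked by class. ARID3A holds 3 matches and ARID3B 5, while ARID3C and the 3914-base 3' UTR of ARID5B hold 0.

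With the let-7a mimic, ARID3A and ARID3B were lower in both siRNA states, ARID5B was slightly lower, and ARID3C was close to 0 throughout. The comparison asks how the added microRNA moves its targets. It was made once in siMYCN cells and once in siCon cells, in pairs of libraries that share no library. In bulk RNA, fewer cells of a type and less RNA per cell cannot be told apart.

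ARID3A was at 5.84 in siMYCN with let-7a and 18.8 in siMYCN with miRCon, and at 8.99 in siCon with let-7a and 14.6 in siCon with miRCon. Both let-7a libraries were below both miRCon libraries. The level was 68.9% lower with let-7a in siMYCN cells and 38.5% lower in siCon cells. As log2 ratios after a pseudocount of 1, which shrinks the change of low genes, these are -1.53 and -0.64. Averaged over the 2 pairs, the log2 fold change was -1.09 ± 0.25 (SE from the limma fit to all 4 libraries), which ranked 7 from the lowest among 9324 tested genes. It did not pass over all genes by limma with Benjamini-Hochberg adjustment (adjusted p = 0.663). The annotation lists 2 other genes that overlap ARID3A, AC005379.1 and AC005391.1, and how the submitters assigned reads shared with them is not stated.

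ARID3B was at 7.49 in siMYCN with let-7a and 13.4 in siMYCN with miRCon, and at 6.39 in siCon with let-7a and 9.43 in siCon with miRCon. Again both let-7a libraries were below both miRCon libraries. The level was 43.9% lower in siMYCN cells and 32.2% lower in siCon cells, or log2 fold changes of -0.76 and -0.50. Their average was -0.63 ± 0.19 (SE, n = 4 libraries), at rank 80 from the lowest. It did not pass by limma (adjusted p = 0.663).

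ARID5B was at 10.8 in siMYCN with let-7a and 14.2 in siMYCN with miRCon, and at 13.2 in siCon with let-7a and 14.5 in siCon with miRCon. The let-7a libraries were again the lower ones, but the difference was small, at 23.5% in siMYCN cells and 8.87% in siCon cells. The average log2 fold change was -0.24 ± 0.16 (SE, n = 4 libraries), with a limma adjusted p of 0.733. ARID3C was listed at 0 (siMYCN) and 0.890 (siCon) with let-7a, against 0.242 (siMYCN) and 0.0793 (siCon) with miRCon. It was under the limit for testing, a mean of 5 over the 4 libraries, and at such levels no fold is given.

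**Figure D2:**
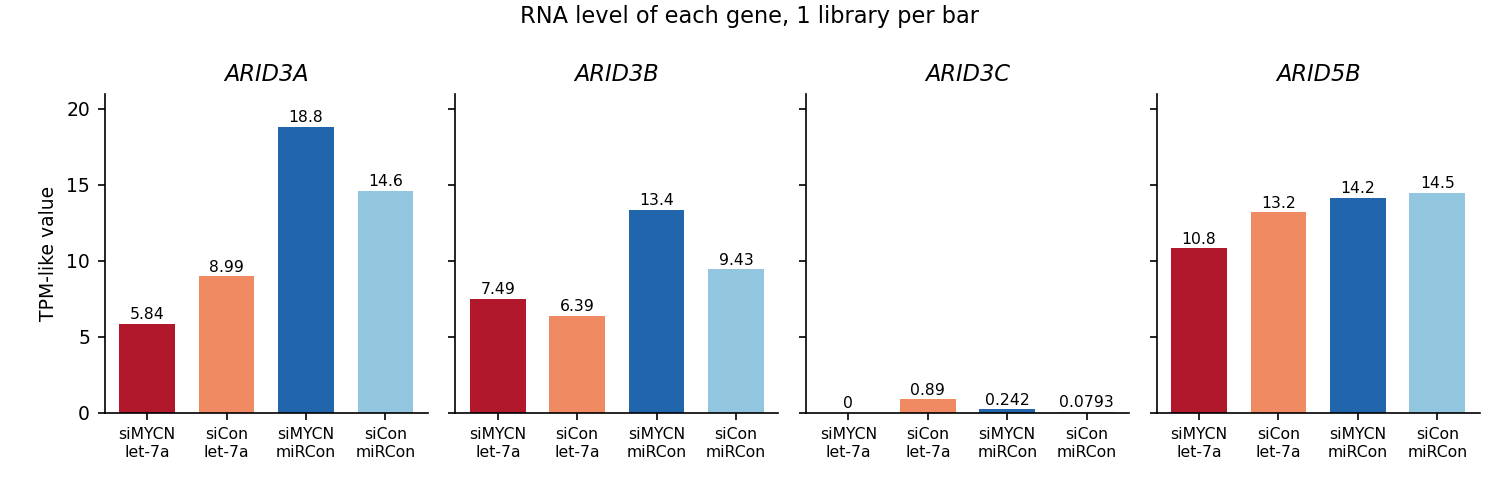
TPM-like value of each gene in each library (1 bar per library, no replicates, so no error bars). For ARID3A and ARID3B both let-7a bars are lower than both miRCon bars, from 5.84 to 8.99 against 14.6 to 18.8 for ARID3A. ARID5B varies from 10.8 to 14.5 and ARID3C stays under 1.

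Of the 3 members that passed the filter on low values, limma called 0 for let-7a, and it called 0% of all tested genes lower. At an unadjusted p under 0.05 by limma, ARID3A and ARID3B passed, as did 697 of the 9324 genes, and limma without a trend also called 0 genes. By size, ARID3A was at least 1.5-fold lower in both pairs, as were 24 genes in all (0.257%); with a pseudocount of 5 its value in siCon cells, -0.49, no longer reached that size. ARID3B was at least 1.5-fold lower in siMYCN cells (3.44% of genes) but not in siCon cells, where 2.02% of genes were; with a pseudocount of 5 its value in siMYCN cells was -0.56, under that size. ARID5B reached that size in neither state.

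The sum of ARID3A and ARID3B, the pair of ARID3 genes that these cells express, was 13.3 in siMYCN with let-7a and 32.2 in siMYCN with miRCon, and 15.4 in siCon with let-7a and 24.0 in siCon with miRCon. ARID3A was the more abundant of the pair in every library except siMYCN with let-7a, with an ARID3A-to-ARID3B ratio of 0.779 there, against 1.41 to 1.55 in the others. ARID5B had the highest level of the 4 genes in both let-7a libraries and ARID3A in both miRCon libraries. Without replicates it cannot be said which neighbours in this order differ beyond their spread.

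The let-7a effect of ARID3A was larger with siMYCN than with siCon. The difference between its log2 fold changes, siMYCN minus siCon, was -0.89, against -0.26 for ARID3B and -0.23 for ARID5B. A difference of at least 1.5-fold below 0 was found for ARID3A and for 5.43% of tested genes. Among the 3652 genes with a mean of 5 to 20, the range that holds all 3 members, the median absolute difference was 0.27 and the 95th percentile 1.02, so the value for ARID3A lies inside the spread of genes of like level. The difference uses up all 4 libraries and has no test.

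**Figure D3:**
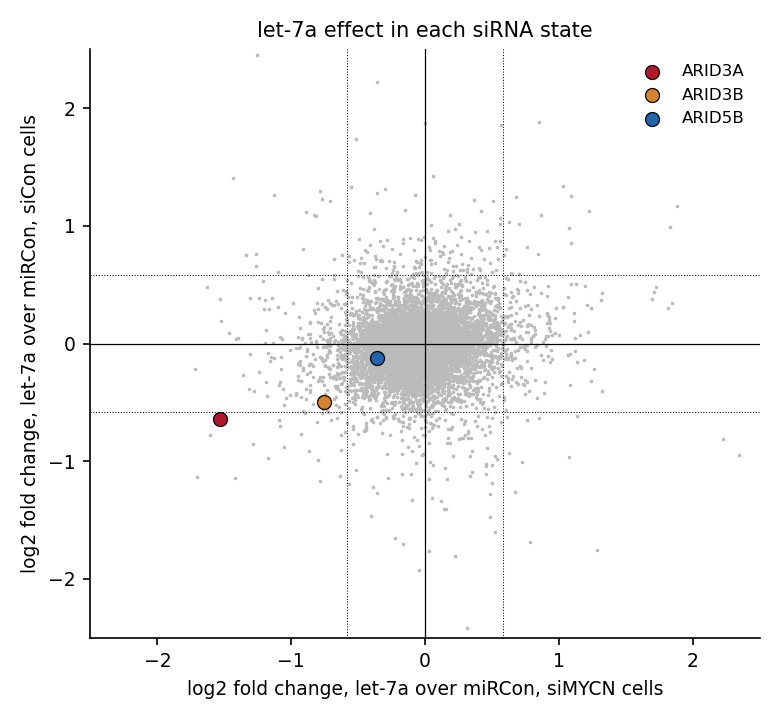
Log2 fold change of let-7a over miRCon in siMYCN cells (x axis) against siCon cells (y axis), 1 grey point per tested gene, with dotted lines at 1.5-fold and 4 genes outside the axes. ARID3A (-1.53, -0.64) lies beyond both lines at the lower left, ARID3B (-0.76, -0.50) beyond the siMYCN line only, and ARID5B (-0.36, -0.13) inside both.

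The number of seed matches can be set beside these values. The 7218 tested genes with 0 matches had a median let-7a effect of -0.025 over both pairs, the 1362 genes with 1 match -0.061, the 263 genes with 2 matches -0.081 and the 73 genes with 3 or more -0.14. Of those 73 genes, 42 (57.5%) were lower in both pairs, against 32.0% of the genes with 0 matches. ARID3A had the lowest effect of the 73 and ARID3B the value at rank 5. Next after ARID3A came IGDCC3, an immunoglobulin-type cell surface protein with 4 matches, and LIN28B with 5. LIN28B had 1 match in the transcript with the longest coding sequence, and with such 3' UTRs 61 genes held at least 3. ARID5B, with 0 matches, was below the median of the genes with 0 matches.

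With siMYCN, none of the members passed the test, and they did not move together. ARID3A was at 18.8 in siMYCN with miRCon and 14.6 in siCon with miRCon, but at 5.84 in siMYCN with let-7a and 8.99 in siCon with let-7a. It was thus higher with siMYCN beside the control mimic (log2 fold change 0.34) and lower beside let-7a (-0.55). Over both pairs this gave -0.10 ± 0.25 (SE, n = 4 libraries; limma adjusted p = 0.832). ARID3B was higher with siMYCN in both pairs, with log2 fold changes of 0.20 beside let-7a and 0.46 beside miRCon, and 0.33 ± 0.19 over both (SE, n = 4 libraries; limma adjusted p = 0.316). ARID5B had -0.26 beside let-7a and -0.030 beside miRCon, and -0.15 ± 0.16 over both (SE, n = 4 libraries; limma adjusted p = 0.601).

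Limma called 0 of these 3 members for siMYCN, while it called 2.07% of tested genes higher and 1.36% lower. These were 193 and 127 genes, against 340 and 408 after rescaling by median ratios and 199 and 260 after rescaling to the same non-mitochondrial total. At least 1.5-fold in both pairs, the shares were 2.85% higher and 1.61% lower over all genes, and 0 of the 3 members were among them. They stood for 266 higher and 150 lower genes, against 193 and 208, and 194 and 206, under the same 2 rescalings. Set against siCon with miRCon, siMYCN with let-7a had log2 fold changes of -1.19 for ARID3A, -0.30 for ARID3B and -0.39 for ARID5B. ARID3B was the only one of the 3 whose siMYCN and let-7a effects over both pairs had opposite signs.

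**Figure D4:**
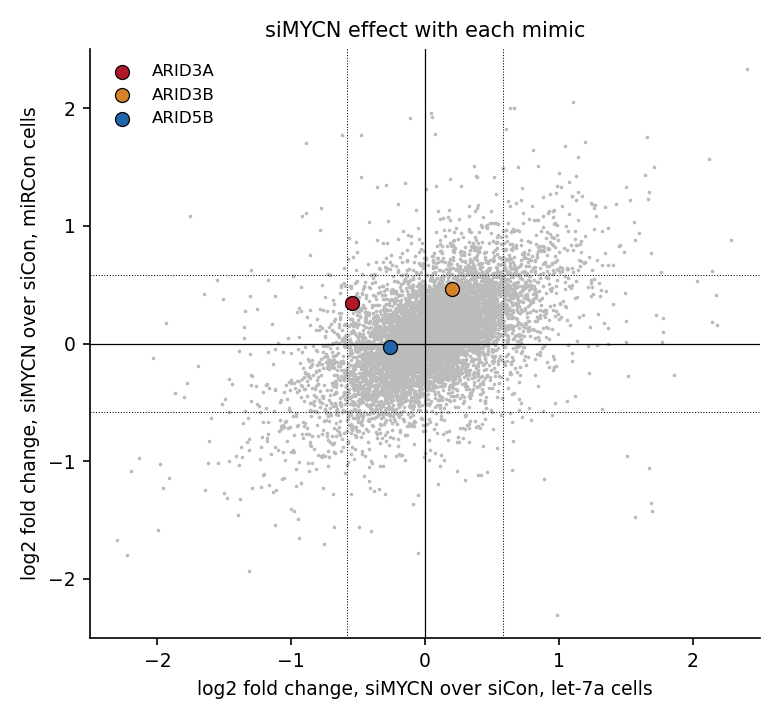
Log2 fold change of siMYCN over siCon with let-7a (x axis) against miRCon (y axis), 1 grey point per tested gene, with dotted lines at 1.5-fold and 9 genes outside the axes. ARID3A (-0.55, 0.34) lies in the upper left, ARID3B (0.20, 0.46) in the upper right and ARID5B (-0.26, -0.030) just below 0 on the y axis.

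The other ARID genes include subunits of the SWI/SNF chromatin remodellers (ARID1A, ARID1B, ARID2), proteins that bind RB1 or its complexes (ARID4A, ARID4B), and JARID2 and the KDM5 group, which act on histone methylation. Of 10 such genes, 9 passed the filter, and ARID5A, at 0.682 to 1.82, did not. Limma called 0 of the 9 for let-7a in either direction. Of the 9, 4 were lower in both pairs and 3 higher in both, where 33.5% of all tested genes were lower in both and 22.6% higher. Their median effect was -0.0050, where the median of all tested genes was -0.031. The largest shared values were those of KDM5B, a histone H3K4 demethylase, with 0.39 in siMYCN and 0.35 in siCon cells, and of ARID4B, with -0.40 and -0.21. JARID2, a partner of Polycomb complex PRC2, had -0.21 and -0.15, ARID1B 0.13 and 0.093, and ARID2 -0.029 and -0.16. In the longest 3' UTR of each of the 9, 0 seed matches were found; the ARID1B transcript with the longest coding sequence held 1. ARID3A and ARID3B were thus lower with let-7a than each of these 9 genes in both pairs.

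With siMYCN, limma called 1 of the 9 higher and 0 lower, where it called 2.07% of all tested genes higher and 1.36% lower. KDM5B rose, at 34.9 in siMYCN with let-7a against 17.6 in siCon with let-7a, and at 26.3 in siMYCN with miRCon against 13.6 in siCon with miRCon (log2 fold change 0.93 ± 0.13, limma adjusted p = 0.0365). This call was lost with no filter (limma adjusted p = 0.193) and without a trend (0.129), in a range from 0.0178 to 0.193 over the alternatives. JARID2 was higher in both pairs, with 0.41 and 0.47, and did not pass (limma adjusted p = 0.103). KDM5C had 0.19 beside let-7a and 0.18 beside miRCon, ARID2 0.28 and 0.15, and ARID1B 0.096 and 0.062. The median of the 9 was 0.079, where the median of all tested genes was 0.056.

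Of 8 reported partners of the ARID3 and ARID5B proteins, 5 passed the filter, and limma called 0 of them for let-7a and 0 for siMYCN. Of all tested genes it called 0 for let-7a, and 2.07% higher and 1.36% lower for siMYCN. KDM4C, a histone H3K9 demethylase described in a complex with ARID3A and ARID3B, was at 10.3 (siMYCN) and 8.40 (siCon) with let-7a, against 7.03 (siMYCN) and 6.85 (siCon) with miRCon. Its let-7a log2 fold changes were 0.49 and 0.26 (limma adjusted p = 0.686 over both), opposite in sign to those of ARID3A and ARID3B. RB1, the retinoblastoma protein, had let-7a values of -0.12 and -0.20. PHF2, the partner of ARID5B, had siMYCN values of 0.40 beside let-7a and 0.18 beside miRCon, and E2F1, a cell cycle transcription factor, had -0.39 and -0.086. BTK, PML and SP100 were under the filter. The let-7a medians of the 5 were 0.034 in siMYCN and -0.066 in siCon cells.

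**Figure D5:**
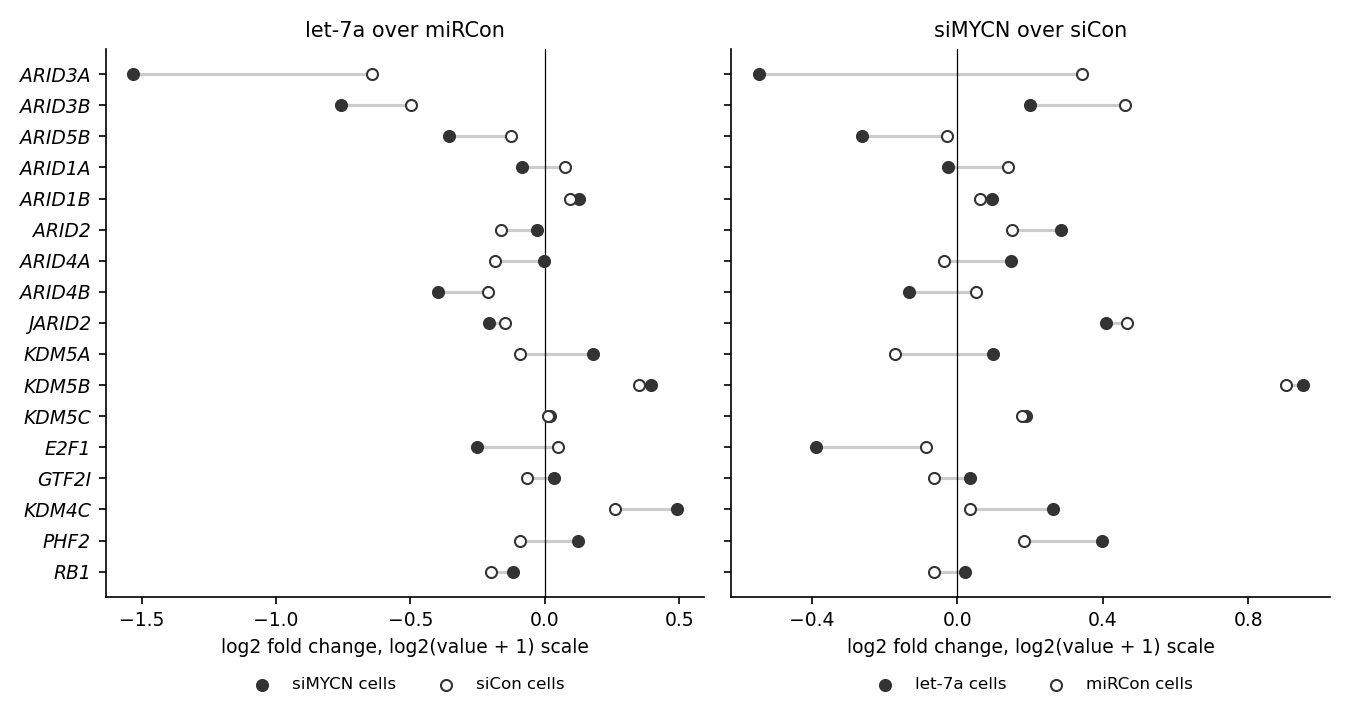
Log2 fold changes of the 3 members, 9 other ARID genes and 5 reported partners that passed the filter, for let-7a over miRCon (left; filled points siMYCN cells, open points siCon cells) and siMYCN over siCon (right; filled points let-7a, open points miRCon), 1 pair of libraries per point. ARID3A and ARID3B lie left of the other genes for let-7a, and KDM5B (0.95, 0.90) lies farthest right for siMYCN.

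Among 20 other let-7 targets, 17 passed the filter, 15 of them were lower in both pairs and 0 higher in both, where 33.5% of all tested genes were lower in both. Limma called 0 of them for let-7a. Their median let-7a effect was -0.44, where the median of all tested genes was -0.031. The list was chosen with earlier results of these data known and includes LIN28B, the check of the mimic, so these values only describe it. IGDCC3 had -1.28 in siMYCN and -0.86 in siCon cells, LIN28B -1.08 and -0.70, ZCCHC11, a terminal uridylyltransferase of let-7 precursors, -1.04 and -0.47, RAB40C -0.47 and -0.45, and PRTG -0.44 and -0.73. The values of ARID3A lay below this median in both pairs, as did those of ARID3B. With siMYCN, limma called 1 of the 17, lower, where it called 1.36% of all tested genes lower and 2.07% higher. IGDCC3 fell with siMYCN (-2.22 beside let-7a and -1.80 beside miRCon; limma adjusted p = 0.0207, lost with no filter at 0.193 and without a trend at 0.129, in a range from 0.00277 to 0.193). LIN28B had -0.79 and -0.40, GXYLT1 -0.56 and -0.42, CDK6 -0.45 and -0.40, and DICER1 -0.78 and -0.27, none of which passed.

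The genes most like each member were found by the Euclidean distance between log2(value + 1) profiles over the 4 libraries, each centred on its mean. For ARID3A they were FSTL4 (distance 0.26), HIC2 (0.28), a transcriptional repressor, and NID2 (0.35), a basement membrane protein, where the median distance over all tested genes was 1.20. FSTL4 was low, at 2.62 to 9.35. These genes were picked on the same values that give the fold changes, so a likeness to ARID3A follows from the choice. Their let-7a log2 fold changes in siMYCN and siCon cells were -1.52 and -0.61 for FSTL4, -1.28 and -0.41 for HIC2, and -1.31 and -0.38 for NID2. Their longest 3' UTRs held 0, 4 and 1 let-7a matches, in that order. For ARID3B the nearest were NFKB2 (0.074), COX18 (0.15) and FBXO22 (0.17), with a median distance of 0.74. For ARID5B they were PPP1CA (0.020), TMEM120B (0.029) and METTL2A (0.034), with a median of 0.43. ARID3A and ARID3B were 0.71 apart, ARID3B and ARID5B 0.61, and ARID3A and ARID5B 0.91. The first is under the median distances of both its genes, while the second is under that of ARID3B but above that of ARID5B. The distance grows with the size of the changes, so its order does not rank the likeness of the members.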

How the data were processed

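The authors deposited 1 table of natural log values per gene for 4 libraries. Per the submitters' processing notes, HISAT 0.1.6, Salmon 0.3.2 and GRCh38 were used, in unstated roles; annotation, filters and log step: not given in the sources used here. Base e was chosen from the column sums: exp(x) - 1 adds up to between 855611 and 861825 per library, as TPM would roughly do, and base 2 gives 143168 to 147548. Such TPM-like values keep no depth, so no counting error is given. Of 19837 rows, 11 vector rows were set apart, and 28 rows with symbols turned into dates were not named.

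Groups follow the sample labels. Genes with a mean of at least 5 were tested (9324) with limma 3.58.1 in R 4.3.3 on log2(value + 1), with a trend and with siRNA and mimic as additive terms. This leaves 1 residual degree of freedom, the departure from additivity, which limma moderates with 4.3 prior degrees of freedom, so SEs and p-values assume that the effects add and rest largely on other genes. P-values were adjusted over all tested genes. The fit was also run on simulated data with additive effects and the same noise for all genes, which cannot test whether the effects add. Seed matches were counted in 3' UTRs of GENCODE 29, joined to the tested genes by symbol, and 8916 of these (95.6%) had a 3' UTR under the same symbol. The other tested genes, ZCCHC11 among them, have no count of matches.

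The members and gene lists were chosen with earlier results of these data known. Named genes are the members, MYCN, LIN28B, up to 5 members of each list per treatment with the largest smaller effect of the 2 pairs, and the 3 nearest profiles per member. Alternatives were other pseudocounts (0.1, 5), filters (none, or a mean of 20) and fold sizes, rescaling by median ratios or to the same non-mitochondrial total, limma without a trend, and 3' UTRs from the transcript with the longest coding sequence. Python 3.11.15, pandas 2.3.3, NumPy 2.4.6 and Matplotlib 3.10.9 were used.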

Additional observations from a re-analysis of the deposited data

Results flagged for a closer look

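ARID3A was the member whose siMYCN effect had opposite signs beside the 2 mimics, with a log2 fold change of -0.55 beside let-7a and 0.34 beside miRCon. Each value comes from 1 pair of libraries, and the difference was not tested. It is the same quantity as the difference between the let-7a effects of ARID3A, -0.89. That value lies inside the spread of genes of like level (95th percentile of the absolute difference 1.02). Under 5 of 5 other settings the values ranged from -0.61 to -0.37 beside let-7a and from 0.28 to 0.36 beside miRCon. Both signs were thus kept, but a pseudocount or a filter cannot change them, and only the rescalings could.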

How the results depend on the processing

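No paired analysis was possible because each group had 1 library and the labels give no replicate numbers; siRNA and mimic were terms of the fit. The let-7a and siMYCN effects of ARID3A, ARID3B and ARID5B kept their direction under 6 of 6 alternatives, and no limma adjusted p was under 0.05. Of these, no filter and no trend leave the effects themselves unchanged. By size, the siMYCN value of ARID3A beside let-7a reached 1.5-fold in 3 of 5 alternatives, though not in the main setting. At a mean of at least 20 the members drop out. The let-7a effect ranged from -1.18 to -0.81 for ARID3A (limma adjusted p from 0.542 to 0.809), from -0.69 to -0.45 for ARID3B and from -0.26 to -0.19 for ARID5B. The differences between the let-7a effects have no SE of their own, and each moved by less than the SE of the averaged let-7a effect. For ARID3A the difference ranged from -0.98 to -0.65, against -0.89. The numbers of seed matches of the 4 members were the same when the 3' UTR came from the transcript with the longest coding sequence. This could hardly differ, because both rules picked the same transcript for ARID3A, ARID3C and ARID5B. For ARID3B they picked 3' UTRs of 2357 and 2355 bases. Rescaling by median ratios moved the median siMYCN effect of all genes to -0.0034, against 0.056.

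Counts over all genes moved more. Genes past 1.5-fold in 1 direction in the 2 let-7a pairs numbered 43, and 17 with a pseudocount of 5, 169 with no filter and 5 at a mean of at least 20; 222 passed at 1.3-fold and 7 at 2-fold. With siMYCN they numbered 416, and 224, 677 and 179 in the same settings, 1184 at 1.3-fold and 64 at 2-fold. Limma called 320 genes for siMYCN, and 0 with no filter, 0 without a trend, 506 at a mean of at least 20 and 748 with rescaling by median ratios, of which 340 were higher and 408 lower, against 193 and 127. Limma called 0 genes for let-7a in each of these settings. The cause was not tested. Depth is unknown, and the single library per group limits every value.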
